A study of Mus musculus with 51 samples.

Results

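The TGF-beta and BMP signalling genes described here are 38 genes taken by symbol: 9 listed as ligands, 10 receptors, 6 Smads that carry the signal, 2 inhibitory Smads, 4 Id genes, 4 antagonists and 3 latent TGF-beta binding proteins. All 38 were found among the 53801 genes of the count table. Of these, 34 passed a filter on low counts and were tested among 17015 genes. Bmp2, Bmp6, Gdf6 and the receptor gene Bmpr1b did not pass it.

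The cells are C3H/10T1/2-SAM, made from an embryonic mouse line of mesenchymal type, and 51 libraries of their RNA were counted. They carry dCas9-VP64, a Cas9 that cannot cut joined to an activator, and MS2-P65-HSF1, which together raise transcription of whatever gene a guide RNA names. Transfection with 250 ng of plasmid brought in an empty vector (EV), a Pparg guide (P), or both a Pparg and a Ybx1 guide (PY). Pparg is the nuclear receptor gene on which the making of fat cells depends, and Ybx1 codes for a protein that binds DNA and RNA. Day 0 fell 48 hours after transfection, and from then on all cells, EV included, had 5 µM rosiglitazone, which binds and activates PPARG. A change between days therefore includes the drug and time in culture. Each of 6 experiments could give RNA at days 0, 2 and 4, and the libraries numbered 5, 6 and 6 for EV, 5, 6 and 6 for P, and 6, 5 and 6 for PY. The guides came on plasmids, so each library averages over cells that took plasmid up and cells that did not.

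TGF-beta, activins and BMPs are secreted proteins that bring type I and type II receptor kinases together on the cell surface. Receptors for TGF-beta and activin phosphorylate Smad2 and Smad3, receptors for BMPs phosphorylate Smad1, Smad5 and Smad9, and all of these enter the nucleus with Smad4. Smad6 and Smad7 block the receptors, noggin and gremlin bind BMPs, follistatin binds activins, and latent TGF-beta binding proteins hold TGF-beta in the matrix. In mesenchymal cells, Bmp4 commits C3H/10T1/2 cells to the fat lineage, and TGF-beta acting through Smad3 restrains fat cell formation.

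To show the sequence context of members whose RNA changed, the 250 bases before the start site are printed for 3 of them, from RefSeq on GRCm38.p6. They are Smad3 (chr9:63757995-63758244, minus strand) and Inhba (chr13:16011601-16011850, plus strand), which fell, and Tgfbr1 (chr4:47352972-47353221, plus strand), which rose in 1 comparison. The falls of Inhba were called with the experiment as a block, and not in the fit of all libraries without it. Each reads from 5′ to 3′ in the direction of its gene, and all 3 windows lie outside the gene model, upstream of the first exon. Capitals mark the Smad box AGAC (or GTCT on the other strand), the Smad GC motif GGCGCC and the TATA motif TATAAA, searched on both strands; no match overlapped another.
Smad3: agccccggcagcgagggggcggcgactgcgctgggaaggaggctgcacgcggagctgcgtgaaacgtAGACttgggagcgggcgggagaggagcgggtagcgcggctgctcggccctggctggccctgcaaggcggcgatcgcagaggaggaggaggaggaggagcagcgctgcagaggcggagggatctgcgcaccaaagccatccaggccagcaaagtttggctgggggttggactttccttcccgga
Inhba: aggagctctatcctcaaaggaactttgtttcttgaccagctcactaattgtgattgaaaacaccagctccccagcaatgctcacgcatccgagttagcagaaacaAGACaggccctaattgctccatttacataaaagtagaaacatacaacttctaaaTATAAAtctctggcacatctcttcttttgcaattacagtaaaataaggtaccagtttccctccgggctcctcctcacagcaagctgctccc
Tgfbr1: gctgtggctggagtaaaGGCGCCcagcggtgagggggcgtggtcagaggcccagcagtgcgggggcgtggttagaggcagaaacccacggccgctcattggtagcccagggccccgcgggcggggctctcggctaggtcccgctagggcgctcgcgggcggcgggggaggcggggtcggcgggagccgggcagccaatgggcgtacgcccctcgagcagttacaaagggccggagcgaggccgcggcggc
The Smad3 window held 1 Smad box, the Inhba window 1 Smad box and 1 TATAAA, and the Tgfbr1 window 1 GGCGCC. Another Tgfbr1 entry, inside the gene at chr4:47385966-47386215 and not printed, held 2 Smad boxes and no GGCGCC. Of 32851 promoter windows of this length, 82.9% held a Smad box, 9.59% GGCGCC and 12.4% TATAAA. The nuclear receptor half-site AGGTCA was in none of the 3 windows and in 14% of all windows. Entries were found for 26 of the 38 members.

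Total counts per library ran from 3381870 to 114566739, with a median of 22.4 M. The targeted genes followed the labels: Pparg was 4.69-fold higher in P than in EV at day 0, 5.30-fold at day 2 and 4.18-fold at day 4, and Ybx1 was 3.05-, 2.95- and 3.24-fold higher in PY than in P. Among mesenchymal markers, Vim ranged from 1961 to 7452 CPM, Col1a1 from 981 to 4427 and Pdgfrb from 195 to 598 over the libraries, whereas Dlk1 and Cd34 stayed at or below 1.15 and 3.51 CPM. CPM are counts scaled to a common library total. The summed level of 7 fat cell markers had medians of 21.6, 84.6 and 96.0 CPM in EV on the 3 days, 111, 3951 and 5269 in P, and 107, 6221 and 8710 in PY, and all 7 were higher in P and in PY than in EV at days 2 and 4. The groups with the Pparg guide therefore hold much more fat cell RNA from day 2 on. The summed level of 8 preadipocyte and mesenchymal markers was lower with the guides, with medians of 10100 CPM in EV, 7515 in P and 5816 in PY at day 2, and 10390, 7045 and 7157 at day 4, beside 7772, 8052 and 7303 at day 0; the groups overlapped. That of 5 smooth muscle markers had medians of 3693, 2714 and 807.5 CPM in EV, P and PY at day 2 and 2939, 2089 and 1570 at day 4, with wide spread. This sum is mainly Acta2, which reached 7068 CPM, whereas Lmod1, Tagln, Cnn1 and Myh11 reached at most 131.8, 60.2, 25.3 and 3.44. PY day 2 has no library of experiment 4, so its medians come from fewer experiments than those of EV and P. Sums over 5 markers each ran from 2.42 to 10.1 CPM for macrophages, 3.94 to 49.5 for endothelium, 0.503 to 15.2 for epithelium and 0.386 to 59.3 for skeletal muscle. Of the cartilage and bone markers, Sox9 ranged from 39.6 to 217.7 CPM, Col2a1 from 14.2 to 548.3 and Runx2 from 18.0 to 51.6. Acan, Comp, Sp7, Bglap, Ibsp and Alpl reached at most 0.127, 3.31, 0.493, 0.102, 0.224 and 9.82 CPM. The summed level of 4 cartilage markers had medians of 430, 316.5 and 210 CPM in EV, P and PY at day 2. At day 4 these were 335, 236 and 190, beside 302, 367 and 345 at day 0, and the groups overlapped. Ptprc, Adgre1, Cdh5, Epcam and Myod1 reached at most 0.207, 0.194, 0.266, 0.105 and 0.111 CPM, while Tek, Acta1 and Krt8 reached 48.5, 59.1 and 11.9. The part of these cell type markers in the results on the members was not tested. In bulk RNA, fewer cells of a type and less RNA per cell cannot be told apart.

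Levels per length spanned a wide range. The mean over all libraries was 520 CPM per kb of exon for Fstl1, which encodes a secreted glycoprotein related to follistatin, 84.6 for the ligand gene Bmp4, and 66.3 and 64.5 for the BMP target genes Id3 and Id1. Receptor genes lay lower, with Tgfbr2 at 39.9, Bmpr1a at 34.9, Tgfbr1 at 9.72, Tgfbr3 at 9.30, Bmpr2 at 8.27 and Acvr1 at 5.83 CPM per kb. Among the Smads, Smad4 stood at 24.4, Smad6 at 18.6, Smad3 at 18.4, Smad7 at 13.0, Smad5 at 12.7, Smad2 at 9.20, Smad1 at 5.36 and Smad9 at 3.67 CPM per kb. The TGF-beta genes differed among themselves, with Tgfb3 at 27.3, Tgfb2 at 11.8 and Tgfb1 at 1.36 CPM per kb. The scarcest members were Nog at 0.245, Acvrl1 at 0.0835, Bmp6 at 0.0652, Gdf6 at 0.0327, Bmpr1b at 0.0302 and Bmp2 at 0.0005 CPM per kb. Bmp2 was at 0 counts in 49 of the 51 libraries and at no more than 2 in the others. Bmp4 was thus the only one of the 3 BMP genes listed here as ligands (Bmp2, Bmp4 and Bmp6) that was measured well above 0 in these cells.

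**Figure D1:**
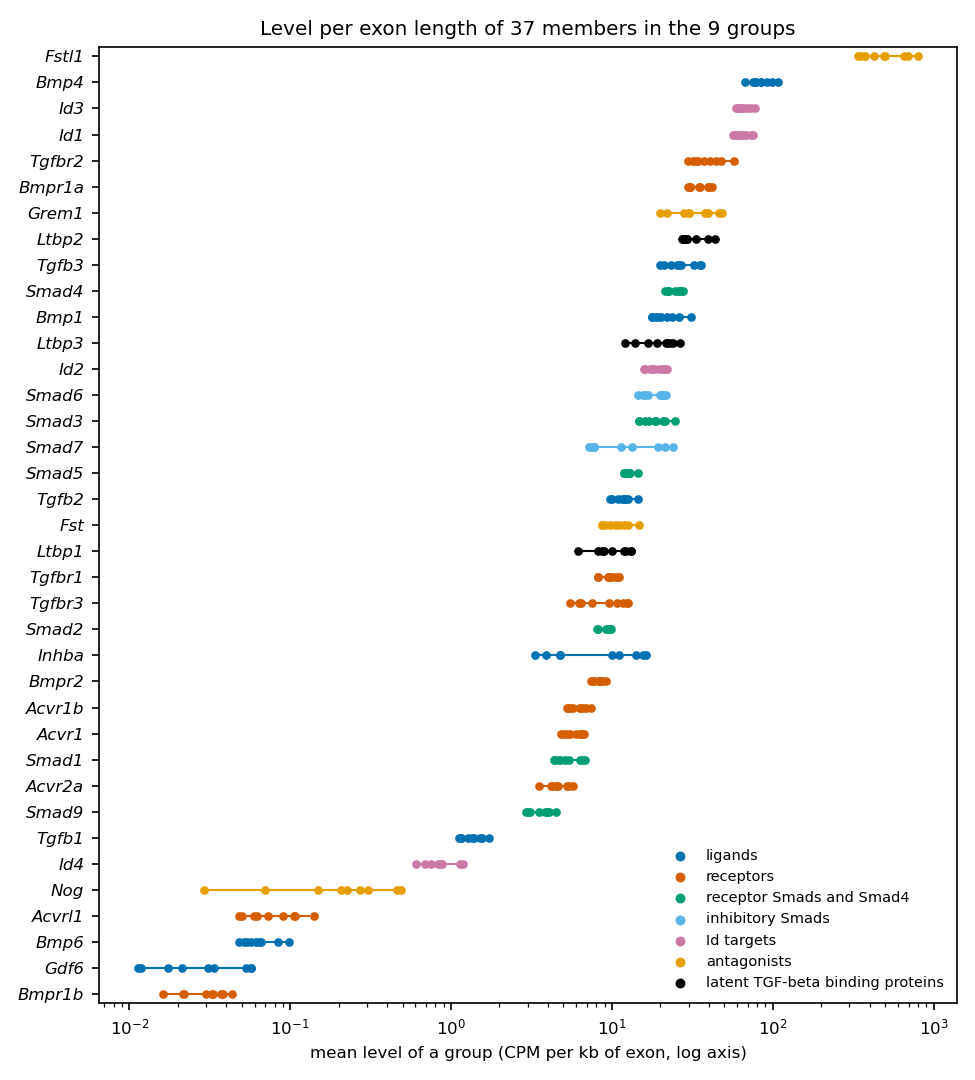
Mean level of 37 members in each of the 9 groups, in CPM per kb of exon on a log axis; 1 point is the mean of a group, the line joins the lowest and highest group, and colours give the role. Bmp2 is left out because most of its libraries are at 0. Fstl1 lies highest, and Nog, Acvrl1, Bmp6, Gdf6 and Bmpr1b lie lowest.

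Few members differed between the transfections, and those that did were seen at days 2 and 4. At day 0 none of the 34 tested members passed at an adjusted p under 0.05 (edgeR quasi-likelihood test, Benjamini-Hochberg over all genes) in P against EV or in PY against EV, where 0.00588% and 0.047% of all genes tested passed. At an unadjusted p under 0.05 the counts were 0 and 1 members, and DESeq2 called 0 in each. At day 2 the test called 0 members in P against EV (background 2.84% of all genes, 2.78% higher and 0.0588% lower), with 3 at an unadjusted p under 0.05 and 0 by DESeq2. In PY against EV at day 2 it called Nog alone, as higher (background 4.74%, 4.34% higher and 0.394% lower). At day 4 it called Nog alone in P against EV, again as higher (background 5.38%, 5.18% higher and 0.2% lower). In PY against EV at day 4 it called Nog as higher and Smad3 and Smad4 as lower (background 7.83%, 7.03% higher and 0.793% lower). The total, 8.82% of the members, lay near the background. These calls were too few to read a direction from. With no filter Smad3 and Smad4 were not called in PY, and in P the only call at day 4 was higher. Whether the members lean lower was not tested.

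A fit with the experiment as a block called more members. At day 2 these were 2 lower in P against EV (background 5.49%, 4.65% higher and 0.835% lower) and 2 higher and 3 lower in PY against EV (background 10.2%, 6.82% higher and 3.38% lower). At day 4 they were 1 higher and 3 lower in P against EV (background 10.1%, 7.92% higher and 2.21% lower) and 2 higher and 6 lower in PY against EV (background 15.8%, 10.3% higher and 5.57% lower). The members called at day 4 with the block were Nog and Bmpr1a, as higher, and Bmp1, Smad3, Smad4, Acvr1, Tgfbr2 and Ltbp2, as lower, with Nog, Bmp1, Smad3 and Smad4 called in both arms. The median log2 difference over the 34 members at day 4 was -0.13 in P against EV and -0.17 in PY against EV, beside -0.06 and -0.05 over all genes tested. P and PY were set against the same EV libraries, so these counts are not independent of each other.

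Adding the Ybx1 guide to the Pparg guide gave no detectable difference in any member. PY against P gave 0 calls among the 34 members on days 0, 2 and 4 by edgeR, with and without the experiment block, and by DESeq2, while 0.0294%, 0.0118% and 0.0176% of all genes passed without the block. At an unadjusted p under 0.05 the counts were 0, 0 and 0 without the block and 0, 1 and 0 with it. The log2 difference was under 0.5 in size for 33 members at day 0, 29 at day 2 and 33 at day 4. The extremes were -0.30 (Smad7) and 0.51 (Nog) at day 0, -1.19 (Inhba) and 0.82 (Nog) at day 2, and -0.48 (Acvrl1) and 0.52 (Inhba) at day 4. The interval for Nog at day 4, a PY level of 0.955 times that in P (95% interval 0.494 to 1.85), shows how wide a difference these libraries would still allow for a scarce gene.

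Without the experiment block, members were called between days only from day 0 to 2, in P and PY. In EV the test called 0 members from day 0 to 2 (background 7.29%, 2.87% higher and 4.43% lower) and 0 from day 2 to 4 (background 0.0353%), with 7 and 6 at an unadjusted p under 0.05 and 1 and 0 by DESeq2. In P it called 3 lower from day 0 to 2, Smad1, Smad3 and Smad4 (background 14%, 6.99% higher and 6.98% lower), and 0 from day 2 to 4 (background 1.28%), with 3 at an unadjusted p under 0.05 in the later step and 0 by DESeq2. In PY it called 3 higher, Bmpr1a, Tgfbr1 and Tgfbr3, and 3 lower, Smad1, Smad4 and Smad7, from day 0 to 2 (background 22.8%, 11.4% in each direction) and 0 from day 2 to 4 (background 0%), with 0 at an unadjusted p under 0.05 in the later step and 0 by DESeq2. With the experiment block the first step gave 2 higher and 6 lower in EV (background 22%), 2 higher and 5 lower in P (background 28.6%), and 6 higher and 8 lower in PY (background 35.6%). The second step then gave 5 higher and 3 lower in EV (background 20.1%), 3 higher and 3 lower in P (background 20.2%) and 1 higher in PY (background 5.7%). These shares of members lie near the background of all genes. The median log2 change over the 34 members from day 0 to 2 was 0.03 in EV, 0.00 in P and -0.05 in PY, beside 0.02, 0.01 and 0.01 over all genes, and from day 2 to 4 it was 0.12, 0.06 and 0.01, beside 0.01, 0.00 and 0.02. The test of whether the P against EV difference itself changed called 0 members from day 0 to 2 and 0 from day 2 to 4 (backgrounds 0.0588% and 0%), with 0 and 1 at an unadjusted p under 0.05 and 0 by DESeq2 in both.

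**Figure D2:**
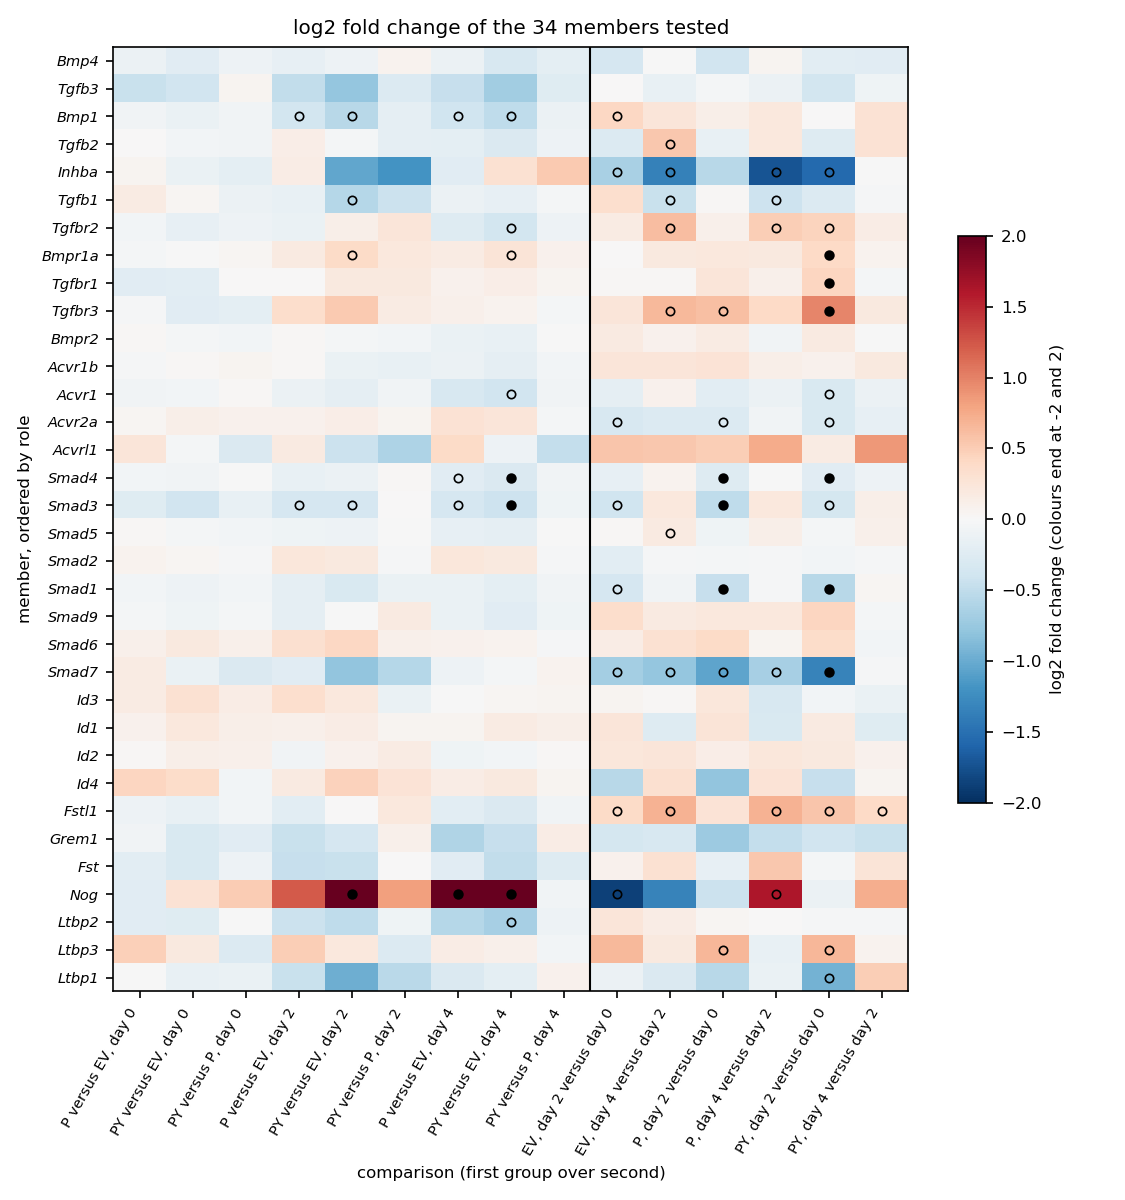
log2 fold change of the 34 tested members (ordered by role) in 15 comparisons, with colours ending at -2 and 2; filled dots mark an adjusted p under 0.05 in the edgeR test without a block, and open dots those that passed only with the experiment as a block. The columns to the left of the line compare transfections and those to the right compare days; Nog has the strongest red, in PY against EV at day 2 and in both arms against EV at day 4, and the columns for PY against P hold no dot.

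Noggin showed the largest difference of any member. Nog (ENSMUSG00000048616, GRCm38 chromosome 11, 89300638 to 89302332, minus strand, 1695 exon bases) encodes a secreted protein that binds BMPs and keeps them from their receptors. At day 4, EV libraries of experiments 1 to 6 had 0.0395, 0, 0.102, 0.156, 0 and 0 CPM of Nog, P libraries had 0.786, 1.40, 0.690, 0.819, 0.799 and 0.445, and PY libraries had 0.804, 0.821, 0.733, 1.11, 0.855 and 0.374. Every P and every PY library lay above every EV library. The means were 0.0496 ± 0.0657 CPM in EV (SD, n = 6), 0.823 ± 0.314 in P (n = 6) and 0.783 ± 0.238 in PY (n = 6). The fitted fold was 18.2 in P over EV (95% interval 7.16 to 46.5, edgeR adjusted p = 3.3e-05) and 17.4 in PY over EV (6.81 to 44.5, adjusted p = 2.5e-05), with the guide arm higher in 6 of 6 experiments. Nog is scarce, so these folds rest on few reads: the 6 libraries of day 4 held 5 counts in all in EV, 99 in P and 101 in PY, and a library at 0 counts allows up to 0.0965 to 0.140 CPM in the 3 EV libraries concerned (3 counts, counting error only). Leaving out any 1 library or experiment kept the P against EV call, with log2 changes of 3.64 to 5.14 and adjusted p up to 0.0011; the highest of these came without EV replicate 4, the highest EV library, and a value of 3.64 came without experiment 2. For PY against EV the log2 change was 5.07 without EV replicate 4. When P and EV of day 4 were fitted alone, Nog fell under the low-count filter and was not tested, and the same held for PY and EV alone; with all groups and no filter the P against EV difference was 4.21 (adjusted p = 2.7e-05).

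Between day 0 and day 4 the mean level of Nog fell in EV and rose in P and PY, with wide spread. Day 4 was not tested against day 0. In EV the mean stood at 0.381 ± 0.332 CPM at day 0 (n = 5), 0.118 ± 0.140 at day 2 (n = 6) and 0.0496 ± 0.0657 at day 4. In P it was 0.351 ± 0.197 (n = 5), 0.251 ± 0.127 (n = 6) and 0.823 ± 0.314 (n = 6), and in PY 0.460 ± 0.269 (n = 6), 0.515 ± 0.335 (n = 5) and 0.783 ± 0.238 (n = 6). At day 0 the 3 groups overlapped, with log2 differences of -0.22 ± 0.56 (SE) in P and 0.29 ± 0.55 in PY against EV (adjusted p = 1 for both, edgeR). From day 0 to 2 the log2 change in EV was -1.88 ± 0.62 (adjusted p = 0.054), and with the experiment block Nog fell by 1.72 on the log2 scale (adjusted p = 0.0155, lower in 4 of 5 experiments, lost without experiment 5). From day 2 to 4 the log2 change in P was 1.62 ± 0.52 (adjusted p = 0.085), and with the block Nog rose by 1.70 (adjusted p = 0.0040, higher in 6 of 6 experiments with no overlap of the 2 days, and called without any 1 experiment). At day 2 PY against EV reached a log2 difference of 2.05 ± 0.63 (adjusted p = 0.048; 0.0045 with the block), higher in 5 of 5 experiments, but 9 of 11 single libraries and 5 of 6 experiments ended this call when left out, as did fitting with no filter (adjusted p = 0.089) or without the 2 libraries of lowest totals (0.054). The change of the P against EV difference from day 2 to 4 was 2.96 ± 0.97 on the log2 scale (unadjusted p = 0.0039, adjusted p = 1). The 7 fat cell markers rose over the same days in P and PY, and their part in the Nog result was not tested.

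The other antagonists did not separate the transfections. Fstl1 passed in no guide comparison, but with the experiment block it rose from day 2 to 4 in all 3 arms, by 0.72 (EV, adjusted p = 3.1e-04), 0.70 (P, 2.4e-04) and 0.54 (PY, 0.014, lost without experiments 2 or 6) on the log2 scale (edgeR); the EV and P calls held without any 1 experiment. In EV the Fstl1 libraries of day 2 ran from 1486 to 2986 CPM (median 2499) and those of day 4 from 2788 to 5018 (median 3838), each experiment higher at day 4. Without the block these Fstl1 changes had adjusted p of 0.15, 0.12 and 0.88. From day 0 to 2 Fstl1 passed with the block in EV (0.41, adjusted p = 0.031) and in PY (0.39, adjusted p = 0.024), and each of these 2 calls was lost without some experiments. Grem1, which encodes the BMP antagonist gremlin, and Fst, which encodes follistatin, passed nowhere in either fit. Grem1 group means ran from 83.2 CPM (P day 4) to 202 (EV day 0), and Fst means from 39.8 (P day 2) to 67.3 (EV day 4).

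Among the listed ligands, Inhba and Bmp1 were each called in 4 or more comparisons with the experiment block. Inhba (chromosome 13, 16011851 to 16031621, plus strand, GRCm38) encodes the beta A chain of activin A. In PY its libraries had 89.0, 46.7, 47.0, 86.5, 168 and 105 CPM at day 0 in experiments 1 to 6, and 12.5, 18.7, 18.0, 56.6 and 46.2 at day 2 in experiments 1, 2, 3, 5 and 6. All 5 experiments with both days were lower at day 2, though the groups overlapped. With the experiment block Inhba fell by 1.43 ± 0.40 on the log2 scale in PY from day 0 to 2 (edgeR adjusted p = 0.0049, lost without experiment 1), by 1.21 ± 0.39 in EV (adjusted p = 0.021, lost without experiments 2 or 5), and from day 2 to 4 by 1.37 ± 0.37 in EV (adjusted p = 0.0077) and 1.69 ± 0.38 in P (adjusted p = 0.0014). The 2 later falls were called without any 1 experiment. Without the block the adjusted p of these 4 changes were 0.11, 0.64, 0.27 and 0.16. Experiment 4 held high Inhba levels, 217.8 CPM in P day 2 and 125.5 in PY day 4 against at most 80.8 and 16.2 in the other libraries of those groups, and PY day 2 has no library of experiment 4.

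Bmp1 (chromosome 14, 70474558 to 70520234, minus strand), which despite its name encodes a protease that trims procollagen and not a BMP, was lower with the guides. At day 4 its libraries had 197.9, 305, 243.8, 258.3, 257.9 and 394.3 CPM in EV, 171.5, 198.4, 185.7, 239.8, 172.6 and 289.6 in P, and 192.6, 164.8, 161.3, 215.7, 171 and 258.3 in PY, in the order of experiments 1 to 6. Each of the 6 experiments was lower in P and in PY than in EV, and the groups overlapped. With the experiment block the log2 difference in Bmp1 was -0.52 ± 0.11 in PY (edgeR adjusted p = 3.3e-04, called without any 1 experiment) and -0.41 ± 0.11 in P (adjusted p = 0.0072, lost without experiments 2 or 5). Without it the values were -0.51 ± 0.17 (adjusted p = 0.053) and -0.40 ± 0.17 (0.25). At day 2 the block gave -0.50 ± 0.11 in PY (adjusted p = 0.0022, lost without experiment 5) and -0.35 ± 0.11 in P (0.037, lost without any 1 of 4 experiments), beside 0.066 and 0.43 without it. From day 0 to 2 in EV, Bmp1 rose by 0.34 ± 0.11 with the block (edgeR adjusted p = 0.024, lost without experiments 1 or 5; 0.15 without the block).

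Of the TGF-beta genes, Tgfb1 and Tgfb2 passed with the experiment block and Tgfb3 did not pass. Tgfb1 passed with the experiment block alone, lower in PY than in EV at day 2 (log2 -0.56 ± 0.16, edgeR adjusted p = 0.020) and lower at day 4 than at day 2 in EV (-0.46 ± 0.15, 0.026) and in P (-0.45 ± 0.15, 0.029). Tgfb2 rose from day 2 to 4 in EV with the block (0.47 ± 0.14, adjusted p = 0.018). Without it these 4 adjusted p were 0.40, 0.43, 0.45 and 0.22, and each block call was lost when some single experiments were left out. Tgfb3 had lower means with the guides on each day, at 109 CPM in EV, 79.1 in P and 67.0 in PY on day 4, with log2 differences at day 4 of -0.46 ± 0.38 in P and -0.70 ± 0.38 in PY (edgeR adjusted p = 0.72 and 0.36; 0.39 and 0.15 with the block). All 6 experiments were lower in P and in PY at day 4, but the spread of Tgfb3 between libraries was wide and the groups overlapped. Exons of Tgfb3 overlap 2 genes on the other strand, over 7.6% and 4.82% of their length, and those reads may be counted with it. Bmp4 passed nowhere, and its group means ran from 152 (PY day 4) to 241 (EV day 0). Single Bmp4 libraries at day 0 differed widely between experiments, from 73.2 to 395.7 CPM within EV. The untested ligand genes Bmp6 and Gdf6 reached at most 0.668 and 0.581 CPM in a library.

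The 3 latent TGF-beta binding protein genes passed with the experiment block and not in the fit of all libraries without it. Ltbp3 rose from day 0 to 2 in P (log2 0.70 ± 0.22, edgeR adjusted p = 0.014; 0.088 without the block) and in PY (0.67 ± 0.22, 0.016; 0.061 without), higher in 4 of 5 experiments each time. Ltbp1 fell over the same step in PY (-0.72 ± 0.24, adjusted p = 0.016; 0.077 without the block), lower in 4 of 5 experiments. Without the block Ltbp1 was also called when PY of these days was fitted alone. Ltbp2 was lower in PY than in EV at day 4 (-0.76 ± 0.23, adjusted p = 0.020; 0.36 without the block). Its means there were 224 ± 158 CPM in PY and 357 ± 180 in EV, and all 6 experiments were lower in PY. Each of these 4 calls was lost when some single experiments were left out. Exons of Ltbp2 overlap D030025P21Rik on the other strand over 9.34% of their length, and the strand setting of the counting is not given in the sources used here.

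The type I receptor genes Bmpr1a and Tgfbr1 rose in PY from day 0 to 2. Bmpr1a (chromosome 14, 34410734 to 34503341, minus strand) encodes a type I BMP receptor, and its PY libraries had 192.2, 174, 225.4, 162.1, 213.1 and 199.8 CPM at day 0 (experiments 1 to 6) and 240.2, 247.8, 228.4, 332.3 and 225.6 at day 2 (experiments 1, 2, 3, 5 and 6). The days did not overlap. Bmpr1a rose by 0.39 ± 0.12 on the log2 scale (edgeR adjusted p = 0.016; 0.0024 with the block), a call lost without PY day 2 replicate 4, the library at 332.3 CPM (adjusted p = 0.11), or without experiments 1 (0.052), 2 (0.063) or 5 (0.16), and, with the block, without experiment 5 (0.052). Against EV at day 2, at 195 ± 21.0 CPM, Bmpr1a in PY was higher by 0.38 ± 0.12 (adjusted p = 0.056) and, with the block, by 0.34 ± 0.09 (0.0095, lost without experiments 5 or 6). At day 4 the difference was 0.26 ± 0.12 (adjusted p = 0.23; 0.044 with the block, lost without any 1 of 4 experiments). Tgfbr1, the type I TGF-beta receptor, rose in PY from 53.8 ± 8.69 CPM at day 0 (n = 6) to 72.3 ± 14.3 at day 2 (n = 5), by 0.43 ± 0.13 on the log2 scale (adjusted p = 0.014; 0.0079 with the block) and in 5 of 5 experiments. This call too was lost without PY day 2 replicate 4, at 97.3 CPM (adjusted p = 0.11), without PY day 0 replicate 4 (0.052) or without experiment 5 (0.086; 0.056 with the block). Acvr1, another type I receptor gene, was lower in PY than in EV at day 4 in 6 of 6 experiments without overlap, at 19.8 to 26.1 CPM against 27.3 to 33.5. The log2 difference in Acvr1 was -0.38 ± 0.14 (adjusted p = 0.079; 0.011 with the block, lost without experiments 3, 5 or 6), and in PY from day 0 to 2 it was -0.30 ± 0.14 (0.13; 0.042 with the block, lost without any 1 of 4 experiments).

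**Figure D3:**
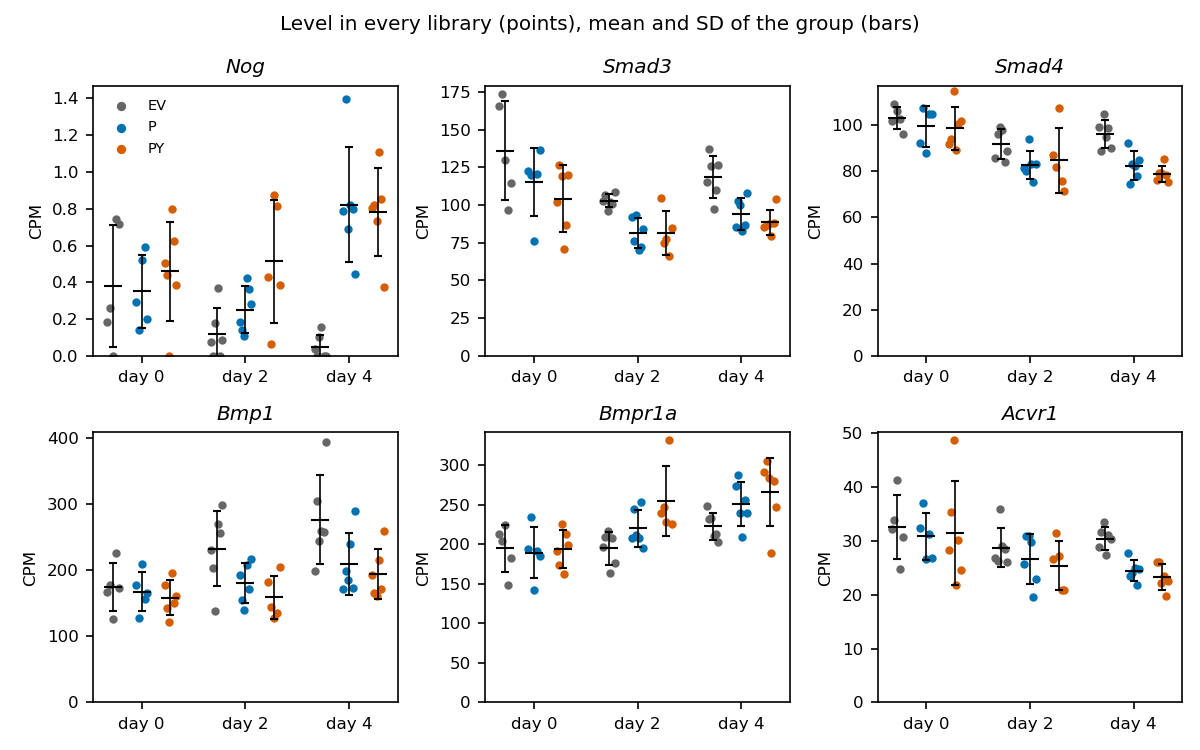
Level in CPM of Nog, Smad3, Smad4, Bmp1, Bmpr1a and Acvr1 in every library by day, with EV in grey, P in blue and PY in orange; points are libraries, and bars are the group mean and SD. At day 4 the P and PY points of Nog lie above all EV points, the PY points of Smad4 and Acvr1 lie below all EV points, and the Bmp1 groups overlap.

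The TGF-beta receptors of type II and III rose with time in ways that showed within experiments. Tgfbr2 (chromosome 9, 116084293 to 116175360, minus strand) encodes the type II TGF-beta receptor. In EV its libraries had 359.1, 353.1, 346.4, 159.2, 327 and 290.8 CPM at day 2 and 588.8, 607.9, 548.4, 253.2, 414.3 and 408.9 at day 4, in the order of experiments 1 to 6. All 6 experiments rose, yet experiment 4 at day 4 stayed below 5 of the 6 libraries of day 2. With the experiment block Tgfbr2 rose by 0.61 ± 0.12 on the log2 scale in EV (edgeR adjusted p = 5.8e-04) and by 0.49 ± 0.12 in P (0.0038), both called without any 1 experiment, whereas without the block the adjusted p were 0.27 and 0.39. At day 4 Tgfbr2 was lower in PY than in EV with the block (-0.38 ± 0.12, adjusted p = 0.027, lower in 6 of 6 experiments; 0.64 without), and from day 0 to 2 it rose in PY with the block (0.32 ± 0.13, adjusted p = 0.048; 0.33 without), both lost without any 1 of 4 experiments. Experiment explained 88.4% of the variance of Tgfbr2 left after the group means, against a median of 54.2% over the tested members and 44.9% over all genes.

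Tgfbr3, which encodes betaglycan, a coreceptor that binds TGF-beta and presents it to the type II receptor, rose from day 0 to 2. In PY its libraries had 41.6, 34.2, 63.2, 16.8, 23.4 and 37.3 CPM at day 0 in experiments 1 to 6, and 88.0, 64.6, 61.8, 66.8 and 70.4 at day 2 in experiments 1, 2, 3, 5 and 6. The rise was seen in 4 of 5 experiments, with log2 0.98 ± 0.37 (edgeR adjusted p = 0.049) and, with the block, 0.93 ± 0.19 (1.6e-04, called without any 1 experiment). Without the block the call failed when any of 10 of the 11 libraries was left out. In P the block gave a rise in Tgfbr3 of 0.67 ± 0.19 over the same step (adjusted p = 0.0061, lost without experiment 5; 0.29 without the block), and in EV a rise of 0.55 ± 0.18 from day 2 to 4 (0.024, lost without experiments 1, 2 or 6; 0.32 without the block). Acvr2a, which encodes a type II receptor for activins, was lower at day 2 than at day 0 with the block in EV, P and PY, by 0.30, 0.31 and 0.31 on the log2 scale (adjusted p = 0.042, 0.028 and 0.024; 0.098, 0.13 and 0.071 without), each lost without some experiments. Bmpr2, Acvr1b and Acvrl1 passed in no comparison of either fit. Acvrl1, a receptor gene mainly of endothelium, stayed at or below 1.07 CPM in all libraries, and Bmpr1b at or below 0.639. Exons of Acvr2a and Bmpr1a overlap other genes on the opposite strand over 7.84% and 4.57% of their length, and those of Tgfbr3 overlap 1 on the same strand over 4.54%, so reads there cannot be told apart for certain.

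**Figure D4:**
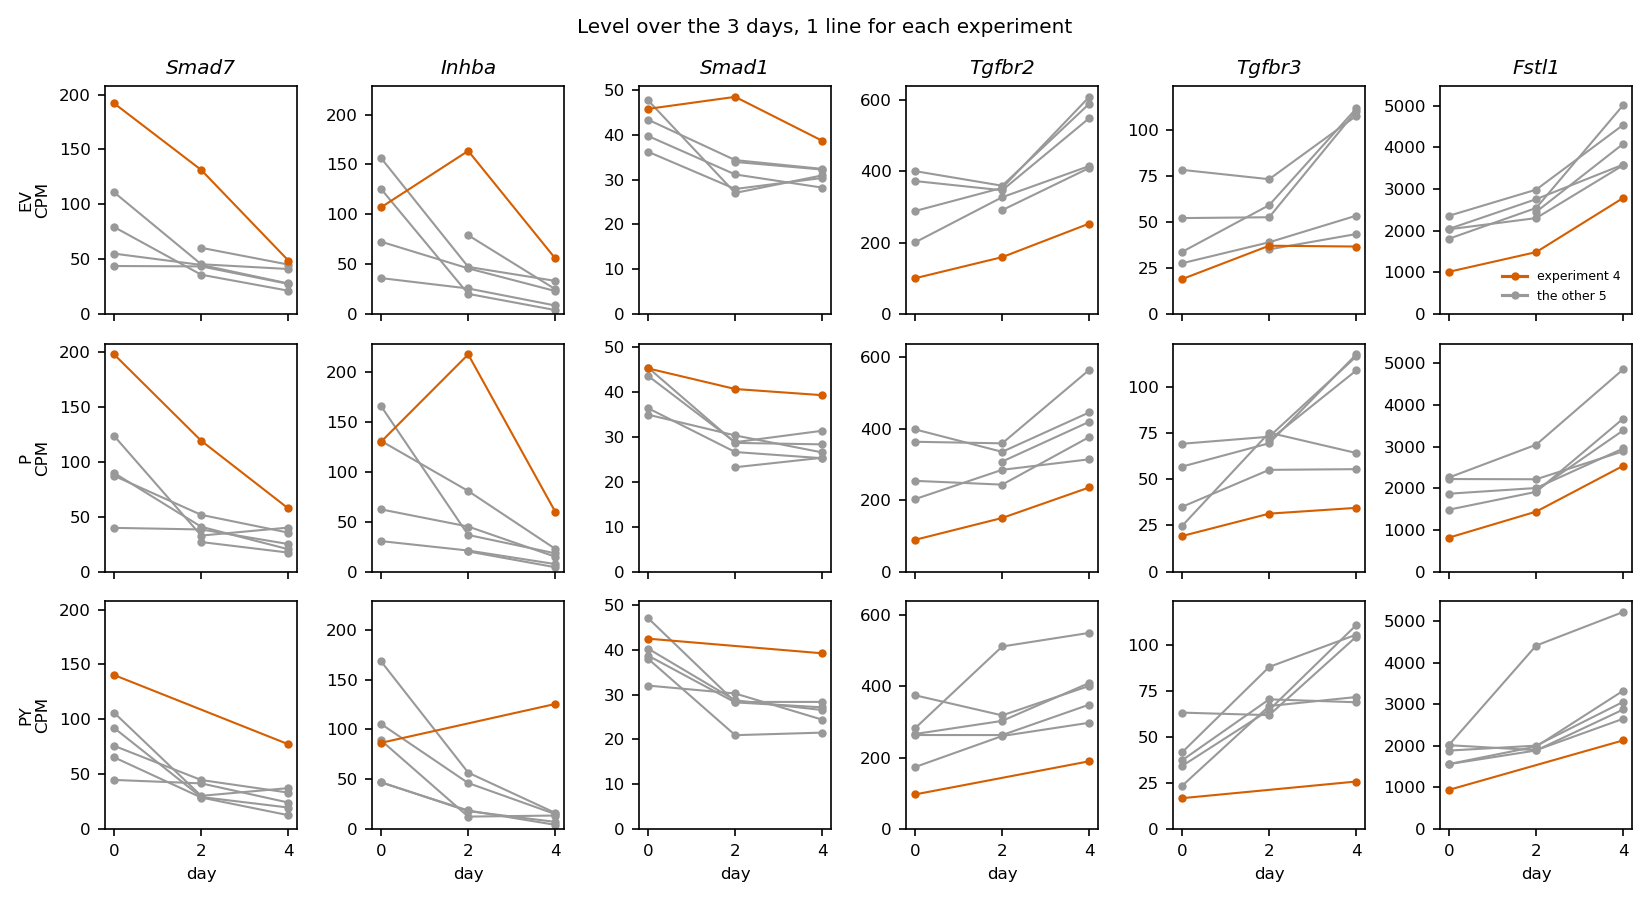
Level in CPM of Smad7, Inhba, Smad1, Tgfbr2, Tgfbr3 and Fstl1 on days 0, 2 and 4 in EV, P and PY, with 1 line for each experiment and experiment 4 in orange. Lines run in like directions while their heights differ: experiment 4 lies high for Smad7 and low for Tgfbr2, Tgfbr3 and Fstl1.

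Of the 6 Smad genes that carry the signal, Smad1, Smad3 and Smad4 fell in at least 1 comparison, and Smad2, Smad5 and Smad9 did not. Smad3 (chromosome 9, 63646767 to 63757994, minus strand), which passes on TGF-beta and activin signals, had 92.0, 76.0, 93.6, 70.2, 72.2 and 84.4 CPM in P at day 2 (experiments 1 to 6), against 122.7, 120.2, 76.4, 120.5 and 136.4 at day 0 (experiments 1, 3, 4, 5 and 6). All 5 experiments with both days were lower at day 2, and the 1 overlap came from experiment 4. Smad3 fell by 0.50 ± 0.14 on the log2 scale in P from day 0 to 2 (edgeR adjusted p = 0.011), a call lost without experiments 5 (adjusted p = 0.12) or 6 (0.095). With the block it fell by 0.51 ± 0.10 (edgeR adjusted p = 1.8e-04, called without any 1 experiment). In EV and PY the same step gave -0.41 ± 0.14 (adjusted p = 0.062) and -0.35 ± 0.14 (0.063), and with the block -0.41 ± 0.10 (0.0030) and -0.39 ± 0.10 (0.0025), both called without any 1 experiment. With the block the fall was thus called in EV too, where no Pparg guide was given.

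Smad3 was also lower with the guides than with EV. At day 0 the log2 difference in PY was -0.39 ± 0.14 (edgeR adjusted p = 1; 0.079 with the block), lower in 5 of 5 experiments. At day 4 EV libraries had 115.1, 136.9, 126, 97.2, 110.1 and 126.4 CPM of Smad3, P libraries 85.1, 102.5, 100.1, 82.8, 86.9 and 107.9, and PY libraries 85.3, 86.6, 87.4, 79.7, 88.1 and 104.2, in the order of experiments 1 to 6. Each experiment was lower in P and in PY. The log2 difference was -0.42 ± 0.13 in PY (edgeR adjusted p = 0.037), which left the threshold when any of 10 of 12 single libraries was left out, and -0.41 ± 0.10 with the block (0.0017, called without any 1 experiment). In P it was -0.33 ± 0.13 (adjusted p = 0.19), and with the block -0.33 ± 0.10 (0.020, lost without any 1 of 5 experiments). At day 2 Smad3 was lower in P than in EV in 6 of 6 experiments with no overlap of the groups, at 81.4 ± 10.1 against 102.8 ± 4.34 CPM; the adjusted p was 0.25, and 0.021 with the block (lost without any 1 of 4 experiments). For PY at day 2 these were 0.21 and 0.0075 (lost without experiment 5). In P and PY at days 2 and 4, where Smad3 was low, fat cell markers were high and the median sums of mesenchymal and smooth muscle markers were low, and their part in the result was not tested. The smooth muscle sum was mainly Acta2.

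Smad4, the partner of all receptor Smads, followed the same direction with smaller steps. At day 4 it had 88.7 to 104.6 CPM in EV (median 96.7) and 75.5 to 85.2 in PY (median 78.6), so the groups did not overlap and 6 of 6 experiments were lower in PY. The log2 difference in Smad4 was -0.28 ± 0.08 (edgeR adjusted p = 0.013; 0.0021 with the block, lost without experiment 3), and the adjusted p rose to 0.065, 0.052 and 0.055 without PY replicate 1, EV replicate 5 or PY replicate 5, and to between 0.063 and 0.12 without any of experiments 1, 3, 5 and 6. In P it was -0.22 ± 0.08 (adjusted p = 0.10; 0.027 with the block, lost without any 1 of 5 experiments). From day 0 to 2 Smad4 fell by 0.26 ± 0.08 in P (adjusted p = 0.022; 0.0041 with the block) and by 0.22 ± 0.08 in PY (0.043; 0.0092 with the block, lost without experiments 5 or 6), lower in 5 of 5 experiments each. Without the block the P call was lost without day 0 replicates 2, 4 or 5 or day 2 replicate 5 (adjusted p = 0.055, 0.067, 0.058 and 0.080), and the PY call without 7 of 11 libraries taken in turn.

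Smad1 (chromosome 8, 79338395 to 79399518, minus strand), which passes on BMP signals, fell from day 0 to 2 and was called in no comparison of transfections. In PY its libraries had 38.7, 38, 32.0, 42.5, 47.1 and 40.3 CPM at day 0 (experiments 1 to 6) and 28.3, 20.9, 30.2, 28.4 and 28.7 at day 2 (experiments 1, 2, 3, 5 and 6), with no overlap. Smad1 fell by 0.55 ± 0.14 on the log2 scale in PY (edgeR adjusted p = 0.0046), and this call held without any 1 library or experiment (highest p 0.045) and with the block (7.5e-05). In P it fell by 0.47 ± 0.14 (adjusted p = 0.020; 2.9e-04 with the block), a call lost without P day 2 replicate 2, P day 0 replicate 3 or P day 0 replicate 4 (adjusted p = 0.059, 0.059 and 0.065) or without experiments 1, 2, 5 or 6. In EV the change was -0.33 ± 0.14 (adjusted p = 0.14), and -0.37 ± 0.09 with the block (0.0032, lost without experiment 2). Of the other members of this class, Smad5 passed once with the block (a rise of 0.18 ± 0.06 from day 2 to 4 in EV, adjusted p = 0.036, lost without any 1 of 5 experiments; 0.19 without the block), and Smad2 and Smad9 passed nowhere, with group means of 70.7 to 87.0 CPM for Smad2 and 15.7 to 24.0 for Smad9.

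The inhibitory Smads differed from each other. Smad7, which blocks the type I receptors of TGF-beta and BMPs, had 92.2, 65.4, 44.8, 140.4, 106.1 and 75.9 CPM in PY at day 0 (experiments 1 to 6) and 29.2, 28.8, 41.6, 30.3 and 44.7 at day 2 (experiments 1, 2, 3, 5 and 6), with no overlap. Smad7 fell by 1.34 ± 0.43 on the log2 scale (edgeR adjusted p = 0.019), a call that was lost without PY day 0 replicate 4 (0.054) or without experiments 1 or 5 (0.079 and 0.11), and by 1.09 ± 0.21 with the block (7.8e-05, called without any 1 experiment). In P the change over this step was -1.06 ± 0.41 (adjusted p = 0.074) and with the block -0.97 ± 0.20 (2.9e-04, called without any 1 experiment), and in EV -0.68 ± 0.41 (0.33) and -0.69 ± 0.20 (0.010, lost without experiments 2 or 5). From day 2 to 4 the block gave a further fall in EV (-0.67 ± 0.19, adjusted p = 0.011; 0.29 without) and in P (-0.61 ± 0.19, 0.022; 0.36 without), each lost without some experiments. Experiment 4 had the highest Smad7 level in all 8 of its groups, and PY day 2 has no library of it. Smad6, which acts mainly on BMP receptors, passed nowhere, with group means of 46.7 CPM (EV day 0) to 69.5 (PY day 2).

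The 4 Id genes, early targets of BMP signals that encode inhibitors of bHLH factors, passed in no comparison of either fit. Id1 group means ran from 66.0 to 87.5 CPM, Id2 from 38.8 to 53.6, Id3 from 106 to 138 and Id4 from 2.34 to 4.57. The largest log2 difference between transfections among the Id genes was 0.46 ± 0.42 for Id4 in PY against EV at day 2 (edgeR adjusted p = 0.67), and the largest for Id3 was 0.33 ± 0.19 in P against EV at day 2 (0.63). Id1 libraries of EV at day 4 ran from 29.0 CPM in experiment 2 to 102 in experiment 4, a spread within 1 group that exceeded any difference between its group means. Whether the Id levels are linked to the fall of Smad1 from day 0 to 2, or to Nog at day 4, which stayed scarce, was not tested.

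Members also varied with the experiment. Group means explained a median of 33.7% of the variance of the tested members (30% over all genes), and the experiment a median of 54.2% of the rest (44.9% over all genes), with 79.5% for Tgfb1, 78.6% for Tgfbr3, 76.8% for Fstl1 and 76.3% for Smad7. Experiment 4 was highest in all but at most 1 of its 8 groups for Smad7 and Id4, and lowest for Tgfbr2, Tgfbr3, Smad3 and Fstl1, where 5.95% and 5.28% of all genes did the same. Experiment 1 was highest for Fstl1 and experiment 6 for Ltbp2. What set these experiments apart was not tested.

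Other genes of the pathway were read from a list of 72, of which 59 were tested. Shares in parentheses are of these 59 and then of all genes. In P against EV at day 2 the test called 3 higher and 1 lower (6.78% beside 2.84%), and 4 and 2 with the experiment block (10.2% beside 5.49%). In PY against EV at day 2 it called 5 higher and 2 lower (11.9% beside 4.74%), and 6 and 7 with the block (22% beside 10.2%). At day 4 it called 3 higher in P (5.08% beside 5.38%), with 5 higher and 3 lower under the block (13.6% beside 10.1%), and 4 higher and 2 lower in PY (10.2% beside 7.83%), with 7 and 9 under the block (27.1% beside 15.8%). From day 0 to 2, 2 fell in EV (3.39% beside 7.29%), 4 rose and 3 fell in P (11.9% beside 14%), and 6 rose and 7 fell in PY (22% beside 22.8%). With the block these were 6 and 13 (32.2% beside 22%), 6 and 10 (27.1% beside 28.6%), and 7 and 17 (40.7% beside 35.6%). From day 2 to 4, 1 rose in P (1.69% beside 1.28%), and with the block 10 rose and 10 fell in EV (33.9% beside 20.1%), 12 and 8 in P (33.9% beside 20.2%), and 4 rose in PY (6.78% beside 5.7%). The shares between days without the block thus lay near or under those of all genes. The largest differences were in Acvr1c, which encodes ALK7, a type I receptor of activin and nodal ligands found in fat cells. Acvr1c stood at 0.0704 ± 0.0785 CPM in EV, 8.06 ± 5.38 in P and 11.8 ± 9.71 in PY at day 4 (93-fold and 136-fold higher, edgeR adjusted p = 3.7e-07 and 5.4e-08). The EV libraries of day 4 held 11 Acvr1c counts in all, with 2 libraries at 0, and without EV replicate 2 the log2 changes rose from 6.54 to 7.19 in P and from 7.09 to 7.75 in PY. Acvr1c was also higher at day 2 (log2 4.64 and 5.45, adjusted p = 9.6e-05 and 6.9e-06). Gdf5, a BMP-type ligand, was 25.6-fold higher in P and 28.1-fold in PY than in EV at day 2 (adjusted p = 7.6e-05 and 4.5e-05; log2 4.82 in PY, and 4.17 without PY day 2 replicate 5), on 10 counts in EV, and 20.5-fold and 18.8-fold higher at day 4 (1.9e-05 and 1.8e-05). Lefty2, which encodes an antagonist of nodal, had 1 count in all EV libraries of day 4, 118 in P and 138 in PY (adjusted p = 6.9e-05 and 2.8e-05), and PY exceeded EV at day 2 too (adjusted p = 0.041, lost without any 1 of the 6 experiments; 0.018 with the block). Bmp3 was 6.26-fold higher in P than in EV at day 2 (edgeR adjusted p = 0.037). That call was lost when 6 of 12 libraries or 5 of 6 experiments were left out in turn, and with no filter. Bmp3 was also higher in PY than in EV at day 2 (log2 3.14, adjusted p = 0.0074, lost without PY day 2 replicate 4 or experiment 5). At day 4 it was higher in PY (log2 2.78, adjusted p = 0.0046, called without any 1 library or experiment) and not called in P. Acvr1c, Gdf5 and Lefty2 held few counts in EV on every day and passed the low-count filter through libraries with the guide, where they are high. Their calls as higher, and the shares that include them, carry that limit. Fat cell markers rose in the same groups as Acvr1c, Gdf5, Lefty2 and Bmp3, and their part was not tested.

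In EV from day 0 to 2 the 2 listed genes that fell were Smurf2 (log2 -0.39 ± 0.10, edgeR adjusted p = 0.0099, lost without experiments 1, 2 or 5) and Rnf111 (-0.32 ± 0.10, 0.037, lost when 7 of 11 libraries were left out in turn), which encode ubiquitin ligases that act on Smads, their inhibitors and receptors. Smurf2 also fell over this step in P (-0.54 ± 0.10, adjusted p = 1.2e-04) and PY (-0.42 ± 0.10, 0.0015), from group means of 273, 250 and 239 CPM at day 0 to 209, 171 and 179 at day 2 in EV, P and PY. Gdf5, Lefty2 and Acvr1c were the 3 largest risers from day 0 to 2 in both P and PY (adjusted p of at most 0.011), and Acvr1c rose further in P from day 2 to 4 (log2 2.15 ± 0.58, adjusted p = 0.047; lost when 8 of 12 libraries or 5 of 6 experiments were left out in turn, with no filter and with the compared groups alone; 2.0e-04 with the block, called without any 1 experiment). Lefty2 in P lost its call without P day 2 replicate 5 (edgeR adjusted p = 0.095) or without experiments 1 or 5. With the block this call was lost without experiment 5 (0.085). In PY, Lefty2 lost its call without PY day 2 replicate 5 or experiment 6, and with the block without experiment 6 (0.059).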

How the data were processed

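The deposited table gives counts per Ensembl gene for 51 libraries, which the authors made with STAR 2.5.3a and featureCounts 1.5.2 on mm10 (GRCm38), per the submitters' processing notes; these also name edgeR 3.22.0. RNA was total RNA after ribosomal depletion with a stranded kit, per the labels. The annotation release, the strand setting and the treatment of reads that map to several places are not given in the sources used here. Groups and experiment numbers came from the labels. Symbols and positions came from GENCODE M21, which held 53706 of the 53801 identifiers and lacked 95. The members and lists were chosen with earlier results of these data known.

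Counts were scaled by TMM and filtered by filterByExpr, and a single quasi-likelihood fit in edgeR 4.0.16 (R 4.3.3; limma 3.58.1) whose coefficients are the 9 group means supplied the 17 comparisons. Tests were two-sided, with Benjamini-Hochberg adjustment over 17015 genes and a threshold of 0.05. SEs were derived from the log2 fold change and its F statistic, and 95% intervals from the SE. CPM use the scaled library totals; values are mean ± SD. The p-values of this fit measure the spread between libraries of different experiments. Those of the fit with the experiment block measure the spread left once differences between experiments are removed. Named genes are all members that passed in either fit and, of the other pathway genes, those among the 3 largest passing changes in at least 1 comparison. A gene so named is also given in other comparisons, where larger changes of unnamed genes may exist.

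Experiment numbers are taken from the labels and pair libraries across groups. Once group means were removed, the median correlation was 0.364 between libraries sharing an experiment (192 pairs) and -0.0886 between the others (963 pairs). The alternative fit has the experiment as an additive block, with a biological coefficient of variation of 0.202 in place of 0.325, and is given where it changed a call. Alternatives were DESeq2 1.42.0, its size factors, no filter, the compared groups alone, and leaving out each library or experiment. The block with each experiment left out, and a fit without the 2 libraries of lowest totals, were added after seeing the data. The fit without the block was tested on simulated counts. These held no differences between experiments and changed no gene as scarce as Nog, so the test does not cover either. No 2 libraries of a group agreed within sampling noise (lowest chi-square per gene 20.7 over 120 pairs).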

Additional observations from a re-analysis of the deposited data

Results flagged for a closer look

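In groups of 5 or 6 libraries, 1 library stood apart from the others by Dixon's criterion in 30 of 306 combinations of member and group; chance alone gives about 1 in 20. Experiment 4 supplied 15 of these, and in EV day 2, P day 2, EV day 4, P day 4 and PY day 4 its library is replicate 4.

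Inhba stood high in replicate 4 of P day 2 (217.8 CPM), P day 4 (59.85) and PY day 4 (125.5). Ltbp1 stood high in replicate 4 of EV day 2 (295.2 CPM), P day 2 (226.5) and PY day 4 (213.2). Smad7 stood high in replicate 4 of EV day 2 (131.3 CPM) and of P day 2 (119.2), as did Smad1 in EV day 2 (48.44), Smad2 in P day 2 (117.2) and Id4 in EV day 0 (8.091). Also from experiment 4, Tgfbr2 stood low in EV day 2 replicate 4 (159.2 CPM), Smad2 in EV day 0 replicate 4 (67.4), Smad9 in EV day 4 replicate 4 (17.05) and Smad3 in P day 0 replicate 3 (76.39).

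In PY day 2, replicate 4, which is from experiment 5, stood high for Bmpr1a (332.3 CPM) and Tgfbr1 (97.33), replicate 1 for Tgfbr2 (511.2) and Fstl1 (4407), and replicate 2 low for Smad1 (20.95). The libraries of experiment 6 stood high for Ltbp2 in PY day 0 (363.3 CPM), PY day 2 (440.2) and PY day 4 (520.3), for Ltbp3 in P day 2 (341), for Smad3 in PY day 4 (104.2) and for Smad5 in P day 0 (100.4), and low for Smad9 in PY day 0 (10.88). The other 3 were high values of Acvr1 in EV day 2 replicate 3 (35.86 CPM), Tgfbr1 in P day 4 replicate 1 (88.13) and Fst in PY day 0 replicate 1 (62.79).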

How the results depend on the processing

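Values are numbers of members called. With the experiment as a replicate block they rose to 2 in P against EV at day 2, 5 in PY against EV at day 2, 4 in P against EV at day 4, 8 in PY against EV at day 4, 8 in EV, 7 in P and 14 in PY from day 0 to 2, and 8 in EV, 6 in P and 1 in PY from day 2 to 4; the block changed no other call. DESeq2 called 2 in PY against EV at day 2 and 1 in EV from day 0 to 2, and DESeq2 size factors gave 2 in PY against EV at day 2. With the compared groups alone, PY against EV gave 0 at day 2 and 1 at day 4, P against EV 0 at day 4, and P from day 0 to 2 gave 0. With no filter PY against EV gave 0 at day 2 and 1 at day 4, and P from day 0 to 2 gave 1. Without the 2 libraries of lowest totals, EV from day 0 to 2 gave 1, and PY against EV at day 2 still gave 1 but not Nog (adjusted p = 0.054). Leaving out 1 library or experiment gave 0 to 3 in EV, 0 to 6 in P and 1 to 10 in PY from day 0 to 2, 0 to 1 in P from day 2 to 4, 0 to 2 and 1 to 5 in PY against EV at days 2 and 4, and 1 in P against EV at day 4; the other comparisons stayed at 0. With the block these ranges were 2 to 9, 4 to 11 and 7 to 13 in EV, P and PY from day 0 to 2 (12 in PY without experiments 2 or 3), 5 to 8, 4 to 7 and 0 to 2 from day 2 to 4, 0 to 2 and 1 to 6 in P against EV at days 2 and 4, and 0 to 6 and 4 to 11 in PY against EV. Among single genes no alternative reversed a direction: 2915 values kept their side of the threshold, 285 moved past it and 328 fell short of it. Why counts moved was not tested. Low counts limit Nog, Gdf5, Acvr1c, Bmp3 and Lefty2, whose EV libraries of day 4 held 5, 21, 11, 15 and 1 counts in all.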
